A study of Drosophila melanogaster with 2 samples.

Results

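The regions described here are the places where GATAe was mapped in sequence between genes and away from any annotated start of transcription. They were chosen by position alone, as peaks of the conservative list whose summit lay outside every annotated gene body and more than 500 bp from every transcription start site (TSS). Of 3032 conservative-list peaks on the chromosome arms, 280 met the rule (9.23%), and they are called members below. The material was whole Drosophila melanogaster embryos aged 0 to 24 h of the strain GATAe-GFP, in which GATAe is fused to enhanced green fluorescent protein (eGFP), and the precipitation was against GFP. The 2 biological replicates form a single group, and no condition was set against another. Peak lists carry no read counts, so the depth behind them is unknown. Whole embryos mix every tissue, so a peak cannot be assigned to a cell type.

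GATA factors are zinc-finger proteins that recognise a GATA core, best when A or T stands before it and A or G after it. The 4 forms of that word, AGATAA or AGATAG or TGATAA or TGATAG on either strand, are written WGATAR below. In the fly, GATAe acts downstream of serpent (srp) in the endoderm and maintains gene expression in the midgut. Distal binding sites of such factors often lie in enhancers, stretches that act on a gene from a distance, and an intergenic peak does not by itself name the gene it acts on. Genes are therefore named here as neighbours, by the nearest protein-coding TSS or as the genes on either side, and not as targets.

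The sequence at the strongest members shows how varied these places were. The summit and 50 bases to either side of it are given for 8 of the strongest members, on the plus strand of dm6, from the RefSeq copy of that assembly. They are the 8 with the highest deposited signal outside one chromosome arm, whose sequence is not shown. The 2 strongest members of all lie on that arm and are described with their values below. Each is labelled by the gene with the nearest protein-coding TSS, and capitals mark WGATAR on either strand.
CG45428, chr3L:22838328-22838428: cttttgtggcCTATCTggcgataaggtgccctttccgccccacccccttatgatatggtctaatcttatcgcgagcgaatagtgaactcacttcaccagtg
CG14297, chr3R:18895352-18895452: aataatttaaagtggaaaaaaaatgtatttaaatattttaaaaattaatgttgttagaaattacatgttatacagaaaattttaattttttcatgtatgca
tara, chr3R:16222428-16222528: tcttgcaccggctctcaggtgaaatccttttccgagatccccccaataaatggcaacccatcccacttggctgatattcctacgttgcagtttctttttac
CG17896, chrX:493949-494049: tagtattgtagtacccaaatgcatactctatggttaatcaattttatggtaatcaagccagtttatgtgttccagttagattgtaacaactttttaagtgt
sp3, chr3R:21520313-21520413: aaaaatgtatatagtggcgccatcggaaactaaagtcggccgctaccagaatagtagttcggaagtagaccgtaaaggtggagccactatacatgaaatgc
Tim17b2, chr2L:15490290-15490390: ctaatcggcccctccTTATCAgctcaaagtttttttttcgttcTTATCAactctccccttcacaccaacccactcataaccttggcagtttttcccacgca
sens-2, chr2L:6817533-6817633: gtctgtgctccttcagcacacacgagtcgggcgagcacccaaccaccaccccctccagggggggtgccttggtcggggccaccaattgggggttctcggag
CG13898, chr3L:781311-781411: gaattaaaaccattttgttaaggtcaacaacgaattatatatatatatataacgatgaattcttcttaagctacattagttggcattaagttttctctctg

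The members at CG45428 and Tim17b2 held the word, and the other 6 shown held none within 50 bp. The 2 strongest members of all, not shown, held 2 words each, and of the 20 strongest members 10 held the word. The sens-2 stretch is rich in runs of C and G, and the CG14297 stretch is mostly A and T. Members with many words looked different. The first 3 below were chosen for their number of WGATAR words within 50 bp. The members at CG3702 and SrpRbeta had 4, the most of any, and the Or98b member had the highest signal of the 7 with 3. The srp and foxo members were added after their values were seen because they stand beside a GATA factor gene and in a gap with several members.
CG3702, chr2L:4224497-4224597: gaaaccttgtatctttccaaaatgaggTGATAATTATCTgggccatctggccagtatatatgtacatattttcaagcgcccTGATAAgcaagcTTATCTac
SrpRbeta, chr3L:8705102-8705202: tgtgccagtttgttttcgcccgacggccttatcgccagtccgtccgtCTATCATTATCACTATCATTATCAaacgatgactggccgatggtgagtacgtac
Or98b, chr3R:28359740-28359840: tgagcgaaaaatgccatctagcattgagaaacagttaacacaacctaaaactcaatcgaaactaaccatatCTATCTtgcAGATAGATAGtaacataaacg
srp, chr3R:15984949-15985049: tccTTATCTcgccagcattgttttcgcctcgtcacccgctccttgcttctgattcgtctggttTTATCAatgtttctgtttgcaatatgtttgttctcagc
foxo, chr3R:14056122-14056222: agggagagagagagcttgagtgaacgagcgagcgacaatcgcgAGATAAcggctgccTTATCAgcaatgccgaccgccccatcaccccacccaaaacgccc

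The SrpRbeta member carried 4 words in an unbroken run, and the CG3702 member carried 4, with 2 of them adjoining. The Or98b member carried 3, with 2 of them overlapping, the srp member 2 and the foxo member 2. In the foxo stretch the 2 words stood close to the summit on either side of it.

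WGATAR stood within 50 bp of the summit in 110 of 280 members (39.3%, exact 95% interval 33.5 to 45.3%), beside 46.0% of all conservative-list summits on the arms. In windows of the same length centred 500 bp to either side of the members it stood in 113 of 560 (20.2%, 16.9 to 23.7%), so members held it 1.95 times as often as their own flanks. The 2 intervals do not overlap. A bare GATA stood at 193 members (68.9%), beside 72.1% of all such summits, and in 48.8% of member flanks. Intervals cover counting error only.

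The single sequence GATAAG, as long as WGATAR but rarer in the flanks, had a higher ratio of members to flanks than WGATAR had. It was at 73 members (26.1%, 21.0 to 31.6%) and in 35 flank windows (6.25%, 4.39 to 8.59%), 4.17 times as often, beside 28.9% of all conservative-list summits. CGATA, in which C precedes the core, was at 70 members (25%) and in 10.4% of flanks, 2.41 times as often, beside 26.4% of all summits. Both WGATAR and CGATA were present at 38 members, and CGATA without WGATAR at 32. No GATA core at all lay within 50 bp of 87 members (31.1%), and their median signal was 80.3. It was 93.2 for the members with WGATAR and 91.3 for the 83 with a core but no WGATAR. These medians were not tested.

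Of the 161 single occurrences of WGATAR at members, 74 were TGATAA (46.0%) and 49 AGATAA (30.4%), so A followed the core in most. TGATAG was found 24 times and AGATAG 14 times (8.70%). In the flanks, with 136 occurrences, TGATAA made up 38.2%, AGATAA 25%, TGATAG 16.2% and AGATAG 20.6%, so A followed the core in most there too. More than 1 word stood in 40 members (14.3%, 10.4 to 18.9%), against 19 flank windows (3.39%, 2.05 to 5.25%). Intronic summits had more than 1 in 17.5% (15.3 to 19.8%), an interval that overlaps that of the members. The closest pair in the 40 members was a median of 18.5 bp apart.

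Words of other factors were rare at members. GAGAG, bound by GAGA factor, was at 27 members (9.64%) and in 12.1% of flanks, beside 12% of all summits. TATCGATA, the word of the factors DREF and BEAF-32, overlaps both GATA and CGATA and was at 1 member (0.357%), beside 1.32% of all summits. TGTTTAC, a forkhead word, was at 7 members (2.5%) and in 1.96% of flanks, beside 2.94% of all summits. CAGGTAG, the Zelda word, was at 1 member, beside 0.495% of all summits. The E-box CACGTG and the AP-1 word TGACTCA were at 3 members each, beside 0.989% of all summits for the E-box and 1.19% for the AP-1 word. For each of these 6 words the interval at members overlapped that of the flanks.

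The classes most like the members are summits inside introns and summits within 500 bp of a TSS. WGATAR was less frequent at members than at intronic summits. It stood at 110 of 280 members (39.3%) and at 606 of 1156 intronic summits (52.4%), a difference of -13.1 percentage points (members minus introns, 95% interval -19.4 to -6.63, two-sided Fisher's exact test, adjusted p = 0.000497 over 6 tests). Flanks differed less, with 20.2% at members and 22.4% at intronic summits. The test treats peaks as independent, and neighbouring peaks are not. The call was lost in windows of 100 bp to either side (adjusted Fisher's exact p = 0.0507), for summits over 2000 bp from a TSS (0.111), among narrow peaks (1), in replicate 1's own list (0.0589) and in replicate 2's own list (0.229), all with the same direction.

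The difference from summits near a TSS did not pass the test. The share of WGATAR was 39.3% at members and 41.6% near a TSS, a difference of -2.36 points (95% interval -8.45 to 3.97, Fisher's exact test, adjusted p = 0.702). For a bare GATA, members minus introns was -6.24 points (-12.4 to -0.503, adjusted Fisher's exact p = 0.0678) and members minus summits near a TSS was -0.957 points (-7.04 to 4.70, adjusted Fisher's exact p = 0.932).

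**Figure D1:**
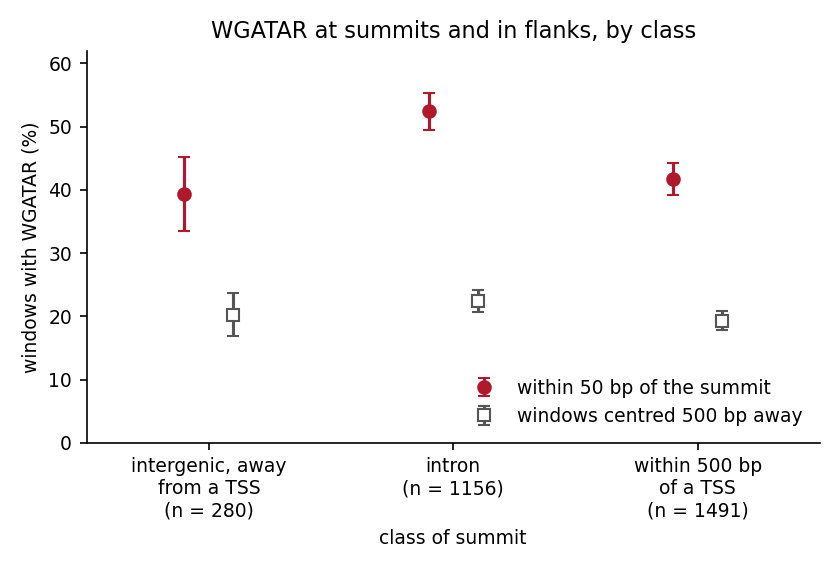
Share of windows with WGATAR, in percent, in 3 classes of summit; each window is its centre with 50 bp to either side. Filled circles are windows at the summit, open squares are windows centred 500 bp to either side, and bars are exact 95% intervals. The member share of 39.3% lies below the intronic 52.4%, while the flank shares lie between 19.3% and 22.4%.

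The word was less sharply centred on member summits than on intronic ones. In windows moved along the sequence, the share at members was 38.6% at 100 bp before the summit, 37.1% at 50 bp before, 39.3% at the summit, 41.4% at 50 bp after and 33.9% at 100 bp after. At intronic summits it was 33.7%, 45.2%, 52.4%, 47.7% and 34.6% at the same places. The member shares formed a plateau and the intronic shares a maximum at the summit, and 100 bp out the intervals of both classes overlapped. These windows overlap, and no test was made of the shapes. Within the whole peak, 212 members (75.7%) held at least 1 WGATAR, and 104 of them held it only over 50 bp from the summit.

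**Figure D2:**
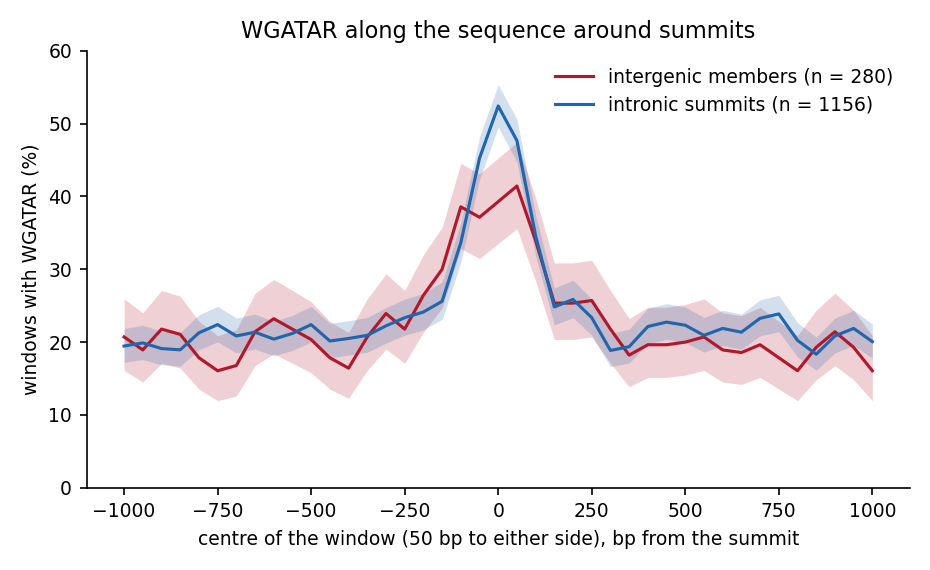
Share of windows (50 bp to either side of a centre) with WGATAR against the distance of the window's centre from the summit, for 280 members and 1156 intronic summits. Shaded bands are exact 95% intervals; intronic summits reach 52.4% at the centre, and members stay between 33.9% and 41.4% from 100 bp before to 100 bp after the summit.

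Most member peaks had the same width. In 256 members (91.4%) the deposited peak was 360 bp wide with the summit exactly at its centre, and 90.8% of intronic peaks had that width. The other 24 members were 90 to 258 bp wide. They were the strong ones, with a median signal of 252 against 85.4 for members of the common width, and all 24 were past the threshold in both replicates. Within 10 bp of the summit, WGATAR stood at 6 of the 24 narrow members (25%, exact 95% interval 9.77 to 46.7%) and at 17 of the 256 wide ones (6.64%, 3.92 to 10.4%). Flank windows of that size held it at 2.08% for narrow members and 3.52% for wide ones. Within 25 bp the shares were 29.2% of narrow and 22.7% of wide members, and within 100 bp 66.7% and 63.3%. The intervals of narrow and wide members overlapped at each of these distances, and the difference was not tested.

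Member signals spanned a wide range. Signal is the authors' measure of peak strength, comparable only within a list. It ran from 2.53 to 515 in the conservative list, with a median of 89.6, beside 88.7 at intronic summits, 96.5 near a TSS and 92.3 over all peaks on the arms. All 17 members with a signal under 20 but 1 overlapped another conservative-list peak. In 4 equal groups of 70 members from strongest to weakest, WGATAR was at 45.7% (exact 95% interval 33.7 to 58.1%), 38.6%, 41.4% and 31.4% (20.9 to 43.6%), with intervals that overlap throughout.

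About 2 in 5 members overlapped a peak past the authors' threshold in both replicates separately, and such members are called past the threshold throughout. A thresholded peak of both replicates met 118 members (42.1%, exact 95% interval 36.3 to 48.2%), beside 46.5% of all conservative-list peaks on the arms. A further 70 members met one of replicate 1 only, 22 met one of replicate 2 only and 70 met none of either. An overlap of 1 bp was enough, so a weak member could count through a neighbour's replicate peak. The share in both was 36.8% when the replicate peak had to cover the summit and 38.6% when a longer overlap was required. The members in both were stronger, with a median signal of 128, against 67 for members in neither. WGATAR stood at 42.4% of the members in both, 31.4% of those in replicate 1 only, 54.5% of those in replicate 2 only and 37.1% of those in neither.

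Members met thresholded peaks of both replicates as often as intronic peaks, at 42.1% and 42.0%, a difference of 0.101 points (95% interval -6.22 to 6.59, Fisher's exact test, adjusted p = 1). The share was 42.1% at members and 50.6% near a TSS, a difference of -8.49 points (-14.7 to -2.12, Fisher's exact test, adjusted p = 0.0277). That call was lost with the limit from a TSS set at 1000 bp (adjusted Fisher's exact p = 0.0615) or 2000 bp (0.861). Those 2 settings also widened the class near a TSS to the same limit. The call was also lost with pseudogenes and transposable elements kept in the annotation (adjusted Fisher's exact p = 0.0750) and among peaks above the median signal (0.220). Among narrow peaks the direction turned, with a difference of 0.578 points (adjusted Fisher's exact p = 1).

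Both replicates had peaks at nearly every member. The conservative list was itself derived from the alignments of both replicates. Neither this overlap nor the correlation below is therefore independent evidence that the replicates agree. Every member overlapped a peak in replicate 1's ranked list, which also holds peaks below the threshold, and 273 overlapped one in replicate 2's. Over these 273, signals ran from 25.8 to 260 in replicate 1, with a median of 47.6, and from 26.4 to 255 in replicate 2, with a median of 46.7. The 2 lists are not on a common scale, so which replicate was higher is not read from them. Spearman's rho was 0.582 and Pearson's r of log2 signals 0.74, as a description across regions of the same libraries, where overlapping members can share a replicate peak. The 7 members with no peak in replicate 2's ranked list had signals from 34.2 to 123 in the conservative list, and 1 of them lay beside chinmo.

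**Figure D3:**
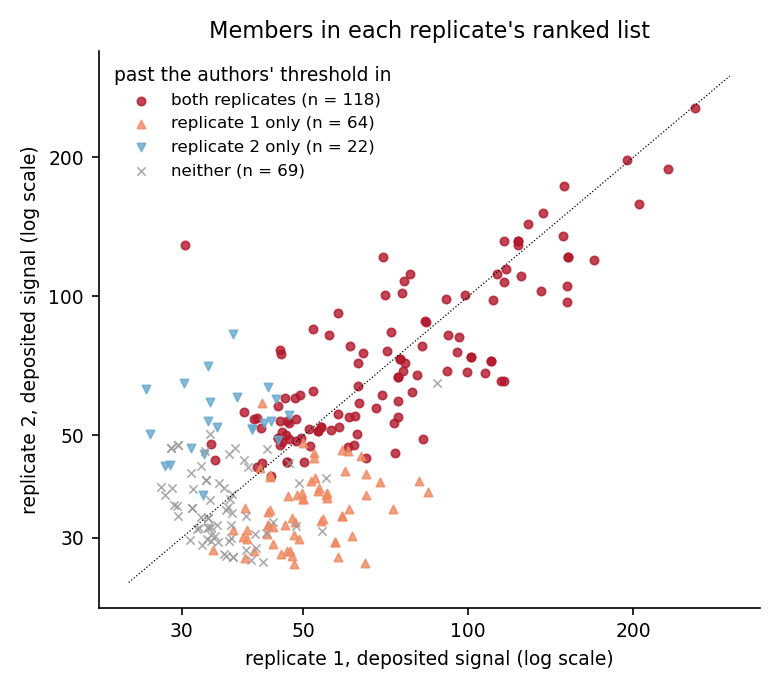
Deposited signal of the highest overlapping peak in replicate 1's ranked list (x axis) and replicate 2's (y axis), both on log scales, for the 273 members found in both. Symbols show in which replicates a member was past the authors' threshold, and the dotted line marks equal values. The 2 lists are not on a common scale, so distance from that line is not read as a difference between replicates. The strongest member of all had 260 in replicate 1 and 255 in replicate 2.

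The strongest member lay between RYBP, which encodes a partner of Polycomb group proteins, and Ppa, which encodes an F-box protein. It covered 22683140 to 22683397 on arm 2R, 5716 bp from the Ppa TSS (FBgn0020257), and its signal of 515 ranked 18 among all conservative-list peaks. It had 260 in replicate 1 and 255 in replicate 2, with 2 WGATAR words. The next lay in a 36783 bp stretch between Su(z)2, a relative of the Polycomb group gene Psc, and CG13323 (FBgn0033788). That peak, at 13035228 to 13035451 on 2R, stood 11912 bp from any TSS, with a signal of 437, 231 in replicate 1, 189 in replicate 2 and 2 words. Both of these members were past the threshold in both replicates.

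The third was at 22838269 to 22838472 on 3L, 1308 bp upstream of CG45428 (FBgn0266977), with a signal of 387, 195 in replicate 1 and 197 in replicate 2. A member 2719 bp upstream of CG14297 (FBgn0038655) on 3R, at 18895314 to 18895501, had 368, with 205 in replicate 1 and 159 in replicate 2. The member upstream of tara (FBgn0040071), which encodes a nuclear protein linked to trithorax group genes, was at 16222395 to 16222595 on 3R. It had 332, with 149 in replicate 1 and 174 in replicate 2. All 3 were past the threshold in both replicates, and only the CG45428 member held WGATAR within 50 bp, as the sequences above show.

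Peaks upstream of CG30010 (signal 288), CG17896 (288) and sp3 (284) lay 504 to 825 bp from a TSS, near the lower limit of the rule, and none held WGATAR within 50 bp. They had 137, 149 and 170 in replicate 1 and 151, 135 and 120 in replicate 2. The Tim17b2 member, beside a gene of mitochondrial import, had a signal of 272 and 2 words. The member upstream of sens-2 (FBgn0051632), a zinc-finger gene related to senseless, had 260 with 123 in replicate 1 and 129 in replicate 2 and no word. A member nearest RYBP had 257, one nearest CG13898 had 256, one nearest chinmo had 254 and one nearest CG33777 had 248. Upstream of foxo, the forkhead gene of insulin signalling, 2 members had 248 and 247. The Or98b member, beside an odorant receptor gene, had 238, with 125 in replicate 1 and 111 in replicate 2, and 3 words. RpS23, a ribosomal protein gene, had 1 at 1207 bp upstream with a signal of 232 and 2 words, SrpRbeta had 1 with 222 and CG46429 had 1 with 220 and 3 words. All 20 of these strongest members were past the threshold in both replicates, and 10 held WGATAR within 50 bp.

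Members lay closer to start sites than the sequence open to them. Their distance to the nearest TSS of any annotated gene ran from 504 to 36725 bp, with a median of 1996 bp. Of the 39319 kb of arm sequence outside gene bodies and over 500 bp from a TSS, 7.20% lay within 1000 bp of one and held 67 members, which is 23.7 per Mb. The 39319 kb include 270 kb of chromosome 4 and 2579 kb of Y, which held 0 members. Densities by distance were not computed without them, nor without sequence in which reads cannot be placed. The density was 16.1 per Mb at 1000 to 2000 bp, 8.92 at 2000 to 5000 bp, 4.51 at 5000 to 10000 bp, 3.69 at 10000 to 20000 bp and 0.580 beyond 20000 bp. WGATAR did not follow this order. Its share was 40.3%, 37.8%, 40.7%, 39.4% and 42.1% in the first 5 of these bands, and 1 of 6 members beyond 20000 bp had it. The summits nearest to the limit of 500 bp lay 504, 505 and 505 bp from a TSS inside it and 492, 488 and 488 bp outside it.

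Short gaps between genes were more densely occupied than long ones. A short gap holds little sequence far from a gene, so gap length and distance to a TSS are linked and were not told apart. Gaps of up to 2000 bp held 49 members at 33.4 per Mb of eligible sequence, gaps of 2000 to 5000 bp held 72 at 22.3 per Mb, and gaps over 50000 bp held 10 at 0.832 per Mb. Without chromosomes 4 and Y the outer values were 34.2 and 1.02 per Mb. Sequence in which reads cannot be placed was not left out of these lengths, and its part in the difference was not tested. The gap around a member was a median of 6450 bp long.

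**Figure D4:**
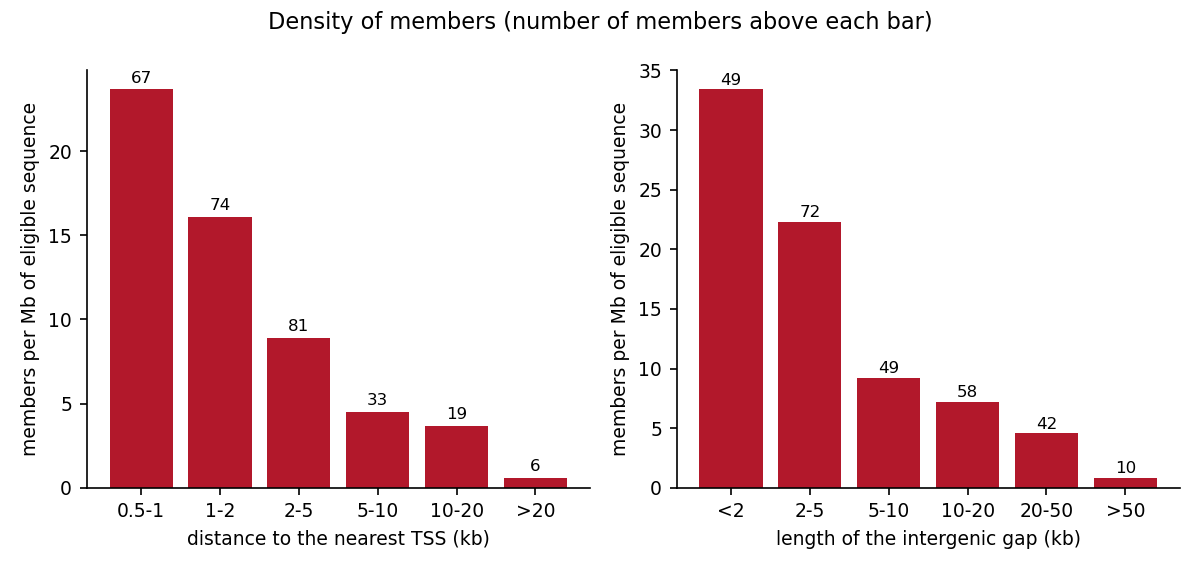
Members per Mb of eligible sequence (outside gene bodies and over 500 bp from a TSS) by distance to the nearest TSS in kb (left) and by length of the intergenic gap in kb (right); the number above each bar is the count of members. Density is highest, at 23.7 per Mb, just beyond 500 bp from a TSS and, at 33.4 per Mb, in gaps of up to 2000 bp.

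Members lay on both sides of the genes they are named by. The nearest protein-coding TSS had the member upstream of it in 177 cases (63.2%) and beyond the 3' end of its gene in 103. A place beyond a 3' end is at least a gene's length from that TSS, so naming by the nearest TSS itself favours the upstream side, and the share of eligible sequence on each side was not computed. Median signals were 91.3 upstream and 86.6 beyond the 3' end, and WGATAR was at 41.8% upstream and 35% beyond the 3' end. By the flanking protein-coding genes, 87 members lay between divergent genes (9.98 per Mb), 123 between genes on the same strand (6.07 per Mb) and 70 between convergent genes (8.29 per Mb). Chromosomes 4 and Y were not left out of these densities. The nearest annotated gene of any kind by its edge was protein-coding for 209 members, a non-coding RNA gene for 67 and a tRNA gene for 4.

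Arm 2L carried 68 members, 10.04 per Mb of eligible sequence and 12.1% of its peaks. Arm 3L carried 78, 8.55 per Mb and 11.7% of its peaks. The values were 55, 7.34 per Mb and 8.74% on 2R, 49, 6.36 per Mb and 7.07% on 3R, and 30, 5.58 per Mb and 6.32% on X. Chromosomes 4 and Y had 0 members, with 3 and 0 peaks of any class. The summit of 4 members lay in an annotated transposable element or pseudogene, which the rule does not count as a gene, and 15 members had over 50% of the window marked as repeats in the assembly. The GC content of the window was 40.1% ± 10.5 at members and 40.0% ± 10.2 in their flanks (SD over windows, n = 280 and 560).

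Most occupied gaps held a single member. Members fell in 212 of 6541 gaps with eligible sequence, of which 171 held 1 each, and 41 gaps with 2 or more held 109 members (38.9%). Some of them were overlapping calls: 47 members overlapped another member, and merging overlaps left 256 places. The gaps named next were chosen after their counts were seen, as those with 4 or more members.

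The gap with most member peaks lay between RFeSP, a subunit gene of the respiratory chain, and chinmo, which encodes a BTB zinc-finger protein of developmental timing and stem cells. Over 20910 bp on 2L it held 8, and the next gap towards chinmo held 3 more, so that chinmo was the nearest gene of 10 members. With overlapping members merged, the 8 were 6 places and the 10 were 7. The strongest of the 8, at 1638644 to 1639003, had a signal of 254 with 152 in replicate 1 and 105 in replicate 2. Members at 1632633 to 1632992 and 1643181 to 1643540 had 176 and 129 and were past the threshold in both replicates too. The weakest had 4.48 and overlapped another member. WGATAR was within 50 bp of 2 of the 8 and of none of the 3.

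Between RYBP and Ppa, 6 members spanned 6728 bp and made up 5 places, since 2 of them overlapped and met the same replicate peaks. Besides the strongest member of all, the one at 22678223 to 22678355 had 257 with 123 in replicate 1 and 132 in replicate 2, and the other 4 had signals from 77.0 to 116. The 6 members between hry (hairy, a pair-rule gene encoding a bHLH repressor) and SrpRbeta, a subunit gene of the signal recognition particle receptor, spanned 12321 bp and did not overlap each other. Their strongest, at 8699655 to 8699883 on 3L, had 222 with 117.03 in replicate 1 and 114.7 in replicate 2. The member with 4 words in a run, at 8704972 to 8705331, had 101.3 with 55.2 in replicate 1 and 36.5 in replicate 2, and it was past the threshold in replicate 1 only. In each of these gaps 4 of 6 members were past the threshold in both replicates and 2 of 6 held the word.

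The 75047 bp gap between NijA, a ninjurin gene, and CG43245 held 5 members, at signals of 96.0, 127, 141, 181 and 56.1 along 3L. The first 4 lay 19176 to 34429 bp from any TSS and were past the threshold in both replicates, and none of the 5 held WGATAR within 50 bp. The gap upstream of foxo held 4, with signals of 71.4, 91.5, 248 and 247 towards its TSS. The third had 151 in replicate 1 and 97.3 in replicate 2, and the fourth, 773 bp from the foxo TSS, had 136 and 103 and 2 words. Between CG13321 and the Polycomb group gene Psc, 4 members lay as 2 overlapping pairs within 1228 bp, with 109 and 13.2 in one pair and 96.6 and 48.8 in the other. Each pair met 1 peak in each replicate, so they stand for 2 places.

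**Figure D5:**
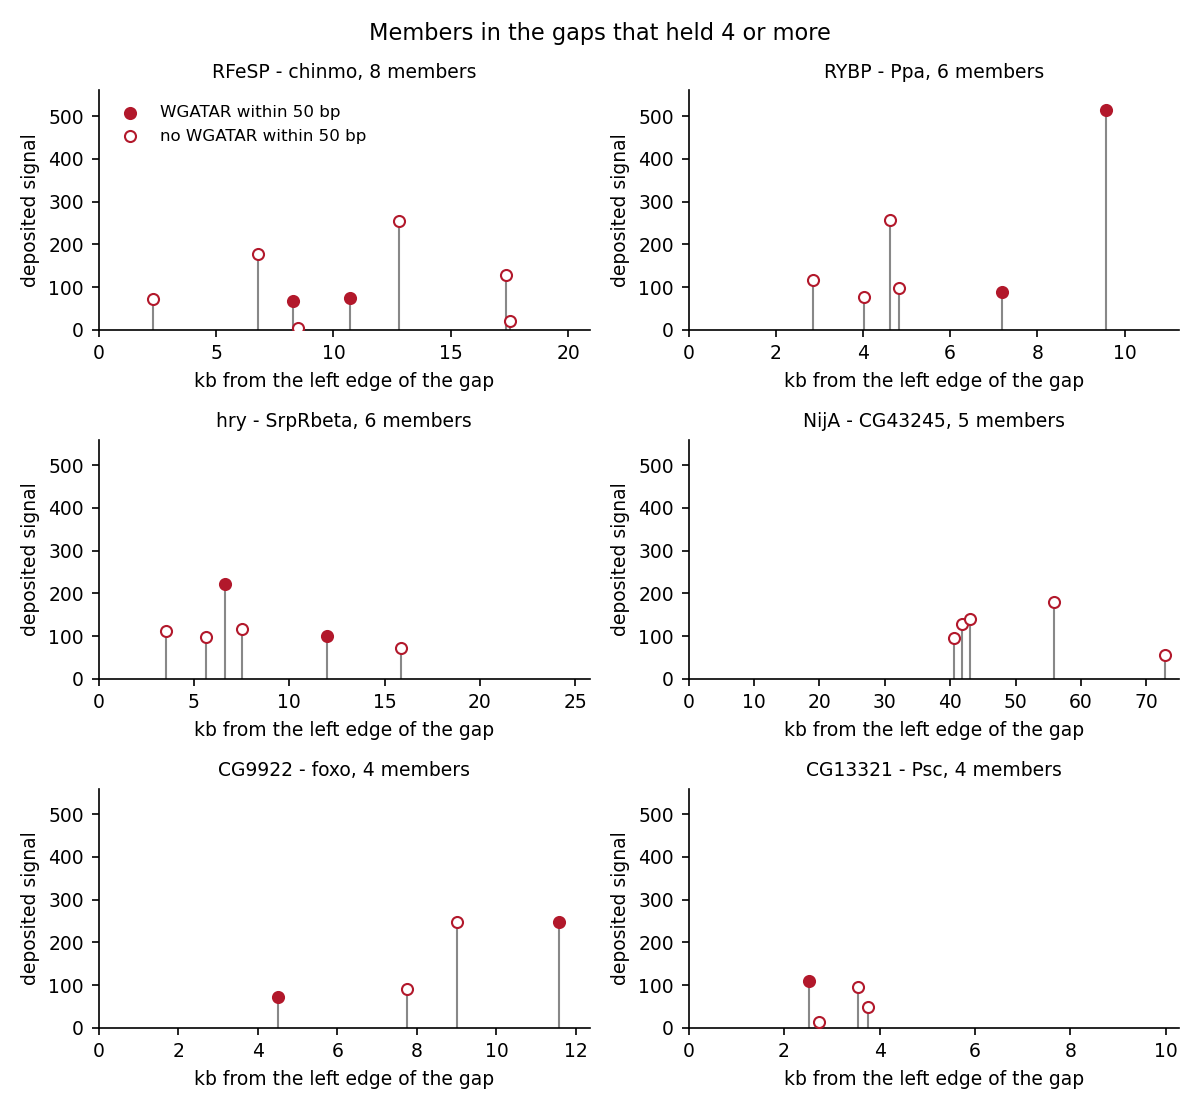
Deposited signal in the conservative list of each member against its distance in kb from the left edge of the intergenic gap, for the 6 gaps with 4 or more members. Filled circles have WGATAR within 50 bp of the summit and open circles have none; the gap between RYBP and Ppa holds the highest signal, 515, and no member of the gap between NijA and CG43245 has the word.

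Between 0 and 6 genes of each gene list were counted beside a member by symbol. Every list symbol matched a gene, but Dl was not counted under its annotated name, Delta. Of 13968 protein-coding genes, 404 (2.89%) had the nearest TSS to a member or flanked one. Among 5 GATA factor genes, srp alone did. Its member lay 1153 bp upstream of the TSS at 15984819 to 15985178 on 3R, had a signal of 202 with 78.3 in replicate 1 and 112 in replicate 2, and held 2 words. Of 19 transcription factors of endoderm and midgut, drm, Sox21a and hth did. Only Sox21a had the nearest TSS, while drm and hth flanked members whose nearest TSS was that of CG43815 and CG6465. The gap beside drm, an odd-skipped family gene, held a member of 204, with 70 in replicate 1 and 122 in replicate 2, and one of 67, neither with a word, the Sox21a member had 73.6 and the hth member 67.7.

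Of 24 genes of secreted signals, 6 were counted as neighbours of a member. Only Pvf3 and vn among them had the nearest TSS. The others flanked members whose nearest TSS was that of CG15059 (for upd3), Sqor (ImpL2), Syt1 (daw) and Acsx4 (bnl). The gene upd3, a cytokine of the JAK/STAT pathway, had 128. ImpL2, an insulin-binding protein, had 112, and Pvf3, a PDGF and VEGF-related factor, had 104. For daw, an activin-like ligand, the value was 72.9 at a member with 3 words, shared with Syt1, the only neighbour among 14 nervous system genes. The EGF receptor ligand vn had 66.1 and the FGF bnl 64.5. The upd3, ImpL2 and Pvf3 members were past the threshold in both replicates and the other 3 were not. Delta, listed as Dl but not among the 6 counted, had the nearest TSS to a member of 60.4 with 2 words. That member was past the threshold in neither replicate.

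In the list of 45 genes for midgut digestion, thetaTry, alphaTry and Npc2d did. The 2 trypsin genes share a gap with 2 members of 81.9 and 18.2 that met the same replicate peaks, 28.6 in replicate 1 and 46.9 in replicate 2, neither past the threshold. Npc2d, which encodes a lipid-binding protein of the Niemann-Pick C2 family and not an enzyme, had a member of 81.6. Of 19 genes of midgut epithelium and junctions only the claudin gene sinu did, at 61.8, and of 21 haemocyte and fat body genes none. The nearest TSS to the sinu member was that of frm. In the list of dorsal ectoderm, amnioserosa and heart, with 14 genes, peb (130), tup (86.8) and the T-box gene mid (77.0 and 13.5) did. The visceral mesoderm forkhead gene bin was the only one of 13 muscle genes, at 99.7. The POU gene vvl was the only one of 8 epidermis and tracheal genes, beside members of 120, 106 and 77.9. The member of 120 had its nearest TSS at Prat2, 9812 bp away, in another gap than the members of 106 and 77.9. Those lay 33869 and 26250 bp from the vvl TSS. None of the lists was tested against all protein-coding genes.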

How the data were processed

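Whole-embryo chromatin of 2 biological replicates was sheared by sonication and precipitated against GFP, per the labels. The authors deposited peak lists on dm6. In each list the deposited signal value is the authors' peak strength, the deposited score was at least 830 in the conservative list, and −log10 of the irreproducible discovery rate stands in the deposited ranked lists but was not used. The aligner was not given in the sources used here. Nor was the peak caller. Depth is unknown, so signals carry no interval. A control experiment named in the labels is not analysed here.

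Summits were placed against Ensembl release 115 genes without pseudogenes and transposable elements, and 99.8% of 30618 start codons read ATG in the RefSeq sequence. An overlap was at least 1 bp. Words were counted on both strands within 50 bp of a summit, shares have exact (Clopper-Pearson) intervals, differences Newcombe intervals, and 6 Fisher's exact tests were adjusted by Benjamini-Hochberg. Python 3.11.15, scipy 1.17.1, numpy 2.4.6 and pandas 2.3.3 were used, and the counting was tested on simulated data.

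The members, the 10 gene lists and the words were chosen with earlier results of these data known. Genes named are those nearest the 20 strongest members and list genes next to a member, plus the gaps with 4 or more members. Sequences are those of the 8 strongest members and the 3 with most words (ties by signal), leaving out arm 2R, whose sequence is not shown.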

Additional observations from a re-analysis of the deposited data

How the results depend on the processing

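The WGATAR share of members kept within its interval under 8 of 14 settings. It was 23.2% in windows of 25 bp to either side, 63.6% in windows of 100 bp, 68.9% for a bare GATA, 26.1% for GATAAG and 50% for narrow peaks. With each replicate's own list it ran from 41.9 to 50%. The number of members was 139 beyond 2000 bp from a TSS, 133 among peaks above the median signal, 24 among narrow peaks and 146 to 217 with a single replicate's list, against 280. The share past the threshold in both replicates was 72.9% among peaks above the median signal and 100% among narrow peaks. The difference in WGATAR from introns kept its direction under 14 of 14 settings and its call under 8. It was -7.45 points in windows of 100 bp, -6.24 for a bare GATA, -11.2 beyond 2000 bp, -11.3 for narrow peaks and -10.1 to -7.69 with a single replicate's list. The difference from TSS summits in both-replicate peaks was -8.50 points beyond 1000 bp, -0.901 beyond 2000 bp, -7.14 with pseudogenes and transposable elements kept, -6.47 among peaks above the median signal and 0.578 for narrow peaks. Its 1000 and 2000 bp settings also widened the class near a TSS to that limit. Wider windows and other words change what is counted, and smaller sets lower the power; for the rest the cause was not tested. Narrow peaks and all alternatives of the last difference were chosen after the data were seen. RefSeq genes gave the same 280 members, and naming by the nearest gene edge kept 232 names.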

Other observations

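The same rule applied to the other deposited lists gave smaller sets. Replicate 1's own thresholded list had 217 such summits (8.76% of its arm peaks), with WGATAR within 50 bp of 41.9% (exact 95% interval 35.3 to 48.8%) and in 18.9% of flank windows. Replicate 2's own list had 146 (8.27%), with the word at 50% (41.6 to 58.4%) and in 20.5% of flanks. The other series-level list had 243, with 41.6% and 20.8%. Of these sets, 81.1% of replicate 1's, 89.0% of replicate 2's and 93.0% of the other series-level list's overlapped a conservative-list peak.

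A member beside sens-2 stood apart in the comparison of replicates, as seen after its values were known. It covered 6817606 to 6817965 on 2L, next to the stronger sens-2 member that it overlaps, and its highest overlapping peaks had 30.4 in replicate 1 and 129 in replicate 2, the lowest ratio of replicate 1 to replicate 2 among the 273 members with both values. In replicate 1 the 2 sens-2 members met different peaks (123 and 30.4), and in replicate 2 they met the same one. The ratio therefore sets unlike peaks side by side, from lists with no common scale, and is not read as a difference between replicates.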
